A study of Mus musculus with 2 samples.

Results

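The 44 genes described here were chosen by name and act in the cell division cycle. They comprise 18 genes of DNA replication and its supply, called S-phase genes below, and 26 genes of chromosome segregation and cell division, called mitotic genes. All 44 were found once among the 28692 genes measured, and all 44 were detected in both libraries, with 69108 unique molecular identifiers (UMIs, 1 per captured transcript) in the control and 89517 in the mutant. Their levels and the cells that held them were compared across 5 endothelial types and across the lymphocytes of the mesentery, the fold of tissue that carries the vessels of the gut.

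Single-cell transcriptomes were measured from CD31+ cells, bound to magnetic beads, of the mesentery of C57BL/6 pups at postnatal day 8. The control library held 6814 cells and the Flcn iΔEC library 4459. Flcn iΔEC pups carried Flcn flox/flox and Cdh5-BAC-CreERT2, a tamoxifen-activated Cre driven by the endothelial Cdh5 gene, so that folliculin was to be lost from endothelial cells (ECs) and not from lymphocytes. Both groups received 40 µg of 4-hydroxytamoxifen at postnatal days 2, 3.5, 5 and 6.5, and each library pooled 3 mice, so there was 1 library per genotype and no replicate of either. The labels give no allele for the control mice, so whether they carried Cre is not known here. No p-value could be given for any difference between the libraries, and each interval below is a 95% interval that covers counting error only, not the difference between mice or between preparations. Intervals of levels and of ratios of levels treat each UMI as separate. They leave out the spread between cells and are too narrow where a few cells hold most UMIs.

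The libraries held 64639756 and 60805779 UMIs, with medians of 7283 and 8587 per cell, and shared 6 cell barcodes. Flcn stood at 10.2 UMIs per 1000000 (counts scaled to all UMIs, CPM) in control ECs, from 143 UMIs, and at 9.74 CPM in mutant ECs, from 265 UMIs. Reads from the 3′ end can lie outside a deleted stretch, so these levels do not check the deletion. Genes that mark sex separated the pools, with 9 control and 63462 mutant UMIs of Xist and 15535 and 17 of 4 Y-linked genes, so sex and genotype cannot be told apart.

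Cells with at least 2 UMIs of Cdh5, which encodes VE-cadherin, were taken as ECs, 566 in the control and 892 in the mutant, and were split by marker lists. This gave 71 and 342 cells like lymphatic ECs (LECs), 99 and 173 like venous ECs (VECs), 106 and 142 like arterial ECs (AECs), 156 and 61 like capillary ECs and 52 and 74 like high endothelial venules (HEVs), the vessels through which lymphocytes enter lymph nodes. The remaining 82 and 100 led in no list. The genes given next are in the lists that set the types, so their levels describe the types and do not test the names. The lymphatic regulator Prox1 stood at 635 and 438 CPM in LEC-like cells, the gap junction gene Gja5 at 432 and 341 CPM in AEC-like cells, Rgcc at 989 and 810 CPM in capillary-like cells and the mucin Glycam1 at 12278 and 4183 CPM in HEV-like cells. The VEC-like name was weaker, since its cells held 2475 and 1158 CPM of Vwf but also 6417 and 2418 CPM of Fabp4, a gene of the capillary list. HEV-like cells were also mixed with blood cell RNA: the pan-leukocyte gene Ptprc was detected in 73.1% of them in the control and 70.3% in the mutant. Ptprc was not confined to them. It was detected in 32.5% and 21.9% of all ECs and in 40.4% and 25.4% of VEC-like cells. There were 5302 and 2672 lymphocytes, mostly T-like (2451 and 991) and B-like (2398 and 1322).

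A dividing cell copies its DNA in S phase and parts the copies in mitosis. Origins are licensed when Cdc6 and Cdt1 load the Mcm2 to Mcm7 helicase, cyclin E (Ccne1, Ccne2) with its kinase starts replication, and Pcna and Gins2 then act at the fork while Rrm1, Rrm2, Tyms and Tk1 supply nucleotides. Cyclins A and B with Cdk1 drive entry into mitosis, the aurora and polo-like kinases and the kinesins build the spindle, Bub1 and Bub1b hold the checkpoint, and Cdc20 and Ube2c direct the destruction of cyclins that ends it. Vessels grow in the mesentery after birth by EC division, whereas most circulating lymphocytes rest until an antigen or cytokine calls them to divide.

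Deep cells show more UMIs of every gene, so cells were compared at a common depth of 2000 UMIs. A cell counted as S-phase when at least 50% of all possible draws of 2000 of its UMIs held 4 or more S-phase UMIs, as mitotic when they held 3 or more mitotic UMIs, and as cycling when it was either. These names stand for the genes a cell held, not for a phase that was observed. The 440 control and 349 mutant cells below 2000 UMIs were left out. By this call 81 of 560 control ECs were cycling, or 14.5% (11.7 to 17.7), and 100 of 889 mutant ECs, or 11.2% (9.25 to 13.5). These intervals overlap. S-phase cells made up 8.04% (5.92 to 10.6) and 4.72% (3.43 to 6.33) of ECs, and mitotic cells 12.1% (9.55 to 15.1) and 10.1% (8.22 to 12.3). With no thinning, 57.4% of control and 74.6% of mutant ECs reached a minimum, an order opposite to that at equal depth, and mutant ECs were deeper, with a median of 24415 UMIs against 16127.

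**Figure D1:**
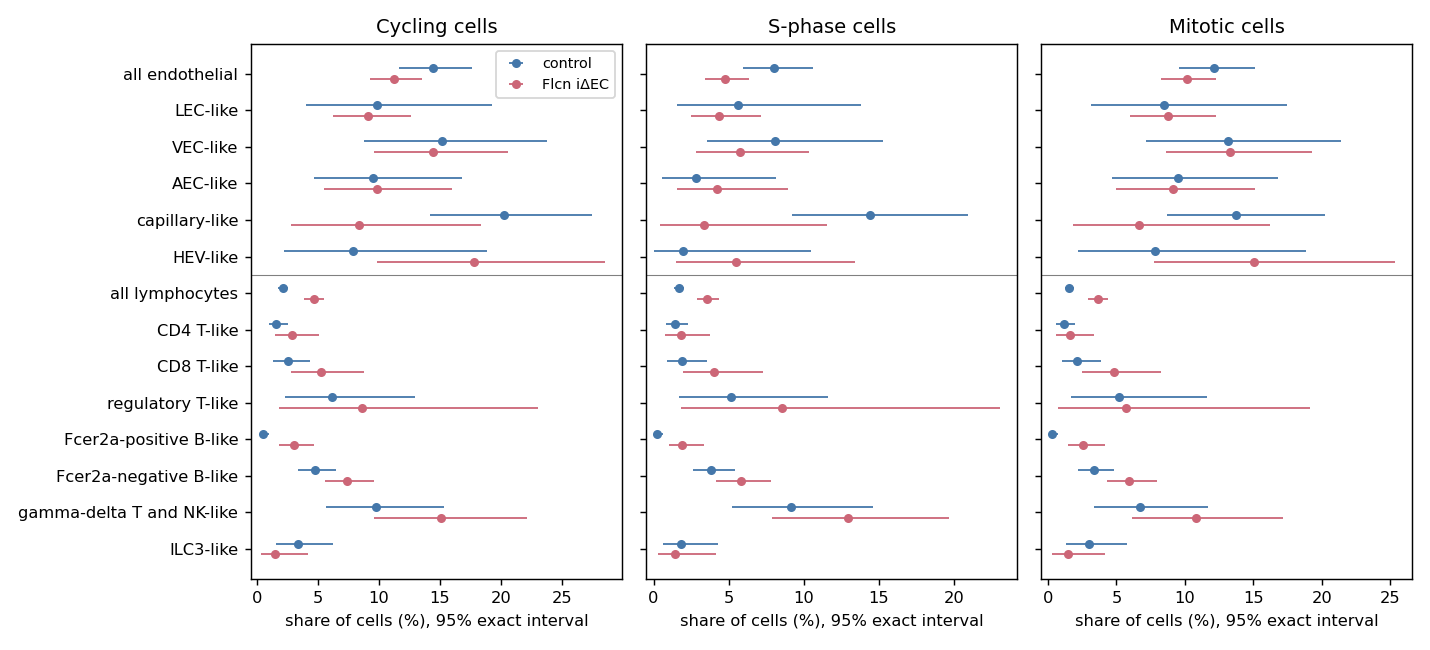
Share of cycling cells, in percent of cells with at least 2000 UMIs, by cell type and library, with exact binomial 95% intervals as bars. The capillary-like cells sit highest among control vessels at 20.3% and near the bottom in the mutant at 8.33%, while the Fcer2a-positive B-like cells sit at 0.511% and 3.04%.

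Capillary-like cells held the highest share of cycling cells of the 5 control endothelial types, although HEV-like cells came first when cells with Ptprc were left out, when types were set by 1 or 2 defining genes, or with no thinning. In the control 31 of 153 were cycling, or 20.3% (14.2 to 27.5), and in the mutant 5 of 60, or 8.33% (2.76 to 18.4). The intervals overlap between 14.2% and 18.4%, and an overlap of intervals is not a test of the difference. The gap was wider in the S-phase class, which held 22 control cells, 14.4% (9.24 to 21.0), and 2 mutant cells, 3.33% (0.406 to 11.5). The mitotic class held 21 control cells, 13.7% (8.70 to 20.2), and 4 mutant cells, 6.67% (1.85 to 16.2). By UMIs summed over all capillary-like cells the order was the other way. The ratios of mutant to control were 0.328 for mitotic and 0.480 for S-phase genes. Capillary-like cells made up 38.3% of the 81 cycling control ECs and 5% of the 100 cycling mutant ECs, beside 156 and 61 capillary-like cells in all. Ptprc was detected in 35.5% of the cycling control cells and 60% of the 5 cycling mutant cells, against 21.3% and 23.6% of other capillary-like cells. The part of leukocyte RNA in these calls was not tested.

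The LEC-like shares of the 2 libraries lay close together. Cycling cells made up 7 of 71 control LEC-like cells, or 9.86% (4.06 to 19.3), and 31 of 342 mutant ones, or 9.06% (6.24 to 12.6). When LEC-like cells were split at 2 UMIs of the hyaluronan receptor gene Lyve1 per 10000, the cells above the limit held 15.8% (6.02 to 31.3) and 12.3% (7.20 to 19.2) cycling cells, and those below it 3.03% (0.0767 to 15.8) and 7.08% (4.01 to 11.4). All of these intervals overlap between the libraries. LEC-like cells were nonetheless 31% of all cycling mutant ECs against 8.64% in the control, beside 342 LEC-like cells against 71.

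In VEC-like and AEC-like cells the intervals of the libraries also overlap. VEC-like cells were cycling in 15.2% (8.74 to 23.8) and 14.5% (9.58 to 20.6) of cases, and AEC-like cells in 9.52% (4.66 to 16.8) and 9.86% (5.50 to 16.0). Among mutant VEC-like cells, 11 of the 31 with Prox1 at 2 or more UMIs per 10000 were cycling, or 35.5% (19.2 to 54.6), against 14 of the other 142, or 9.86% (5.50 to 16.0), and these intervals do not overlap. The cells with Prox1 were deeper, at a median of 40875 UMIs against 25045, and the part of depth in this difference beyond the common 2000 UMIs was not tested. Only 6 control VEC-like cells held that much Prox1, of which 2 were cycling. HEV-like cells were cycling in 7.84% (2.18 to 18.9) and 17.8% (9.84 to 28.5) of cases.

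A smaller share of lymphocytes than of ECs was called cycling in each library, with intervals that do not overlap. Cycling cells made up 109 of 5198 control lymphocytes, or 2.10% (1.72 to 2.52), and 123 of 2647 mutant lymphocytes, or 4.65% (3.88 to 5.52), with intervals that do not overlap. The difference lay in both classes, at 1.67% (1.34 to 2.06) and 3.55% (2.88 to 4.33) for S-phase cells and 1.52% (1.21 to 1.89) and 3.63% (2.95 to 4.41) for mitotic cells. Unthinned, 23.6% and 31.3% of lymphocytes reached a minimum. As a background, 0 of 20 control neutrophil-like cells, a type that has left the cycle, were called cycling (0 to 16.8%), and 1 of 17 mutant ones, a single cell of 76053 UMIs, so background can be bounded only loosely from this type.

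B-like cells had the largest ratio of mutant to control share among T-like, B-like, γδ T and NK-like and ILC3-like cells, at 2.78. They were cycling in 45 of 2349 control cells, or 1.92% (1.40 to 2.56), and in 70 of 1314 mutant cells, or 5.33% (4.18 to 6.68). B-like cells with a UMI of Fcer2a, which encodes the CD23 of mature follicular B cells, were cycling in 0.511% (0.221 to 1.0) and 3.04% (1.84 to 4.71), again without overlap. Those without Fcer2a were cycling in 4.73% (3.35 to 6.46) and 7.39% (5.55 to 9.60), with overlap. The cells with Fcer2a included only 8 and 19 cycling cells, and a split at 1 UMI depends on depth. T-like cells stood at 1.61% (1.15 to 2.20) and 2.94% (1.98 to 4.20). Within them, cells with Cd4 stood at 1.60% and 2.89%, cells with Cd8 at 2.53% and 5.22%, and regulatory T-like cells, few in number, at 6.19% and 8.57%. γδ T and NK-like cells held the highest share of the lymphocyte types, 9.76% (5.68 to 15.4) and 15.1% (9.60 to 22.2), and type 3 innate lymphoid-like (ILC3-like) cells went the other way, at 3.33% (1.54 to 6.23) and 1.44% (0.298 to 4.16). For the T-like, γδ T and NK-like and ILC3-like cells the intervals of the 2 libraries overlap.

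The number of members per cell follows from the call, which used the same genes, and is given as a description. A cycling EC held a median of 36 of the 44 genes in the control and 37 in the mutant, against 4 and 5 in other ECs, and a cycling lymphocyte 31 in both against 2 in both. Cycling cells were also deeper as a whole. Their median was 28966 UMIs against 15401 in other control ECs and 43127 against 23373 in the mutant, and 21049 against 7171 and 17250 against 7837 in lymphocytes. In the doublet calls, 0 cycling ECs of either library and 1 cycling control lymphocyte were marked. Ptprc was nonetheless detected in 39.5% and 33% of cycling ECs, against 31.7% and 20.5% of other ECs. Of the control ECs, 12 of 81 cycling and 9 of 479 other cells reached a minimum in between 25% and 75% of draws and so lay near the limit, and in the mutant 14 of 100 and 17 of 789.

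The share of UMIs that lay in the called cells differed between the phases. The call used the same genes, with a lower UMI minimum for mitotic than for S-phase genes. These shares are therefore also a description and do not test how far each phase was confined. In ECs 89.7% and 88.5% of mitotic UMIs lay in cycling cells, but 60.7% and 55.2% of S-phase UMIs. The other ECs still held 304 and 316 CPM of the S-phase genes in total and 173 and 138 CPM of the mitotic genes. In lymphocytes the cycling cells held 64.9% and 76.2% of mitotic and 42.6% and 53.5% of S-phase UMIs. ECs and lymphocytes also differed in the balance of phases: mitotic UMIs were 2.17 and 1.70 times the S-phase UMIs in ECs and 0.865 and 1.08 times in lymphocytes.

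Each gene was then compared between cells that were called cycling by the other 43 genes and the remaining cells, so that no gene took part in its own comparison. Over all genes, 4.33% of those tested in control ECs and 4.44% in mutant ECs were at least 2-fold higher in the cycling cells, and 10.3% and 7.48% in lymphocytes, while all 44 members were higher with intervals above 1. None was lower, as 2.57% and 2.55% of all genes were in ECs and 9.09% and 5.99% in lymphocytes by at least 2-fold. The other genes of a panel still set the call, with the lower minimum for mitotic genes. Of the cycling ECs, 68 of 81 and 90 of 100 were called mitotic, and 45 and 42 S-phase. The order of the 2 panels is therefore a description and not a test. Mitotic genes had median ratios of 40.2-fold and 43.8-fold in ECs, and S-phase genes of 5.14-fold and 4.93-fold. In lymphocytes the medians were 89.5-fold and 78.2-fold for mitotic genes and 11-fold and 7.09-fold for S-phase genes. Of the mitotic genes, 25 of 26 were past 10-fold in ECs of both libraries, and of the S-phase genes 5 of 18.

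Cenpa, the histone variant that marks centromeres, was the mitotic gene least tied to the called cells, at 8.53-fold and 9.39-fold in ECs and 4.15-fold and 5.76-fold in lymphocytes. Kif2c, a kinesin that takes microtubules apart, was the most tied in ECs, at 127-fold and 263-fold. Among S-phase genes the linker histone Hist1h1b led in control ECs at 35.1-fold and 2810417H13Rik, the gene of the PCNA-binding protein Pclaf, in mutant ECs at 40.2-fold. The S-phase gene with the lowest ratio was Mcm6 in control ECs, at 2.05-fold, and Mcm3 in mutant ECs, at 2.38-fold. 2810417H13Rik was also first in lymphocytes, at 276-fold and 170-fold.

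**Figure D2:**
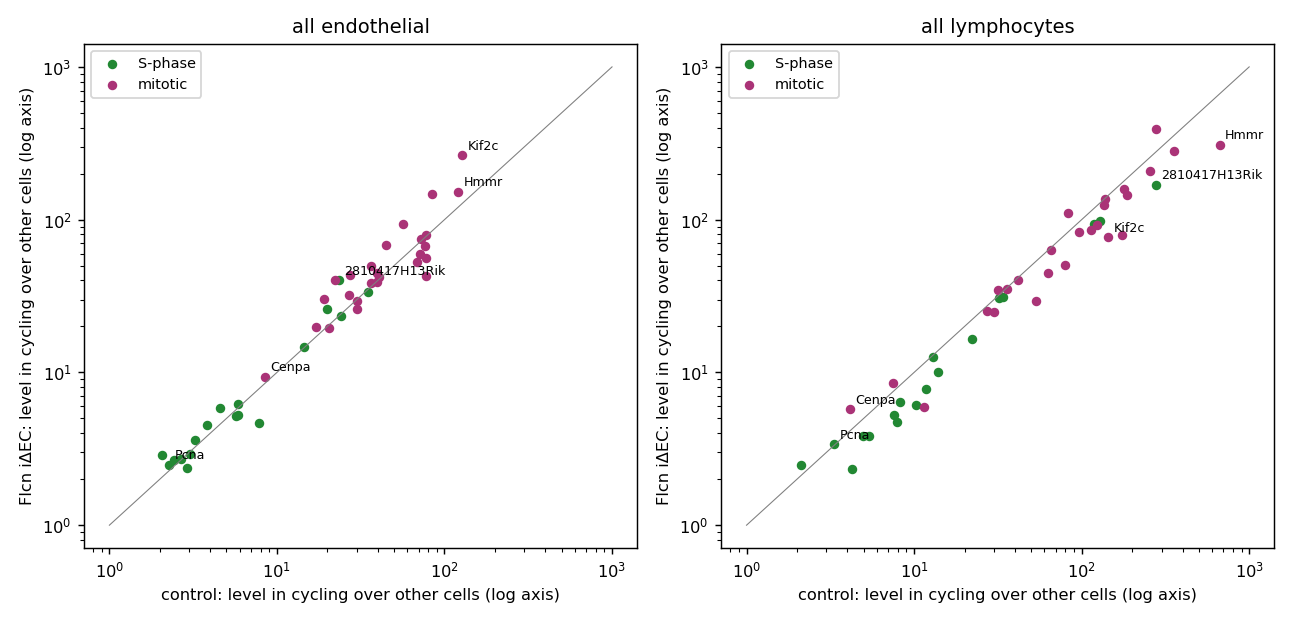
Ratio of each gene's level in cycling cells to its level in other cells, on log axes, for ECs and for lymphocytes, with the control on the x axis, the mutant on the y axis, equal values on the grey line and 1 point per gene. Mitotic genes mostly lie further out than S-phase genes, with medians of 40.2 and 5.14 in control ECs, and Cenpa lies lowest among the mitotic genes. The other genes of each panel helped to set the cycling class, so the order of the panels is a description.

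The S-phase and mitotic genes also differed in how often short sequence words lay near their start sites, which the choice by name did not use. RefSeq promoters (GRCm38.p6, 250 bases before to 50 after the start) were matched for 37 of the 44 genes, 15 S-phase and 22 mitotic. The word TTTGAA, the cell cycle homology region bound by the complexes that time mitotic genes, was searched on both strands. It was present in 17 of 22 mitotic promoters, 77.3%, in 2 of 15 S-phase promoters, 13.3%, and in 20.2% of all genes with a promoter. The CCAAT box, CCAAT on either strand, was found in 86.4% of mitotic and 66.7% of S-phase promoters and in 41.1% of all genes with a promoter, and both words together in 72.7%, 13.3% and 7.97% of the same sets. The E2F words TTTCCCGC, TTTCGCGC, TTTGCCGC and TTTGGCGC, which may overlap each other, were found on either strand in 7 of 15 S-phase promoters, 46.7%, in 1 of 22 mitotic promoters (Cdk1), 4.55%, and in 2.60% of all genes with a promoter. A word is a match of letters only and no evidence that a factor binds there.

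The stretches before the start sites of 2 mitotic and 2 S-phase genes with many endothelial UMIs are shown because they carry these words, with the CCAAT box and the cell cycle homology region, read on either strand, in capitals for the first pair and the E2F words for the second. They are Ube2c at chr2:164769701-164769928 on the plus strand, Top2a at chr11:99024190-99024416, Mcm6 at chr1:128359706-128359825 and Mcm7 at chr5:138171884-138172048, the last 3 on the minus strand and all read 5′ to 3′.
Ube2c: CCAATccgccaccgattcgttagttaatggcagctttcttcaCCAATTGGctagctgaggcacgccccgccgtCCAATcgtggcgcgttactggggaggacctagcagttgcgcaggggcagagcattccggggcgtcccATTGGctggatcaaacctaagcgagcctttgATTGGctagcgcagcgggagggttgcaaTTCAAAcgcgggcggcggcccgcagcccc
Top2a: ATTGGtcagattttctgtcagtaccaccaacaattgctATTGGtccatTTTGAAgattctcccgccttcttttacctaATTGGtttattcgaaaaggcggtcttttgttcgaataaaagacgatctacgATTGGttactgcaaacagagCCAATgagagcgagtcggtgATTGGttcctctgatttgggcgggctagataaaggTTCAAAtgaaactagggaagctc
Mcm6: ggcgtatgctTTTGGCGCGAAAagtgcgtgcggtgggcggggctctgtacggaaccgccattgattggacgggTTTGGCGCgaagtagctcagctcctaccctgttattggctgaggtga
Mcm7: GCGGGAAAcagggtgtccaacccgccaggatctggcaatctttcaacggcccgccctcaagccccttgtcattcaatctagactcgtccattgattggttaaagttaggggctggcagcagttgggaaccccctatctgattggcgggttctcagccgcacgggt
In Ube2c a single TTTGAA word and 6 CCAAT words were found, in Top2a 2 and 6. Mcm6 held 3 E2F words, of which 2 overlap as 1 run of capitals, and Mcm7 held 1, and neither held TTTGAA.

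Levels, unlike shares, use every UMI of every cell. Capillary-like cells held 867 CPM of S-phase genes in the control and 416 in the mutant, a ratio of 0.480 (0.438 to 0.526), and 1943 and 637 CPM of mitotic genes, 0.328 (0.305 to 0.352). These were the lowest ratios of both panels among the 5 endothelial types with all cells in. AEC-like cells held like S-phase levels, 400 and 404 CPM, but 1371 and 585 CPM of mitotic genes, 0.427 (0.403 to 0.452). In LEC-like cells the S-phase level was 557 and 602 CPM, 1.08, and the mitotic level 1379 and 1176 CPM, 0.852. VEC-like cells differed little, at 587 and 628 CPM, 1.07, and 1430 and 1311 CPM, 0.916.

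**Figure D3:**
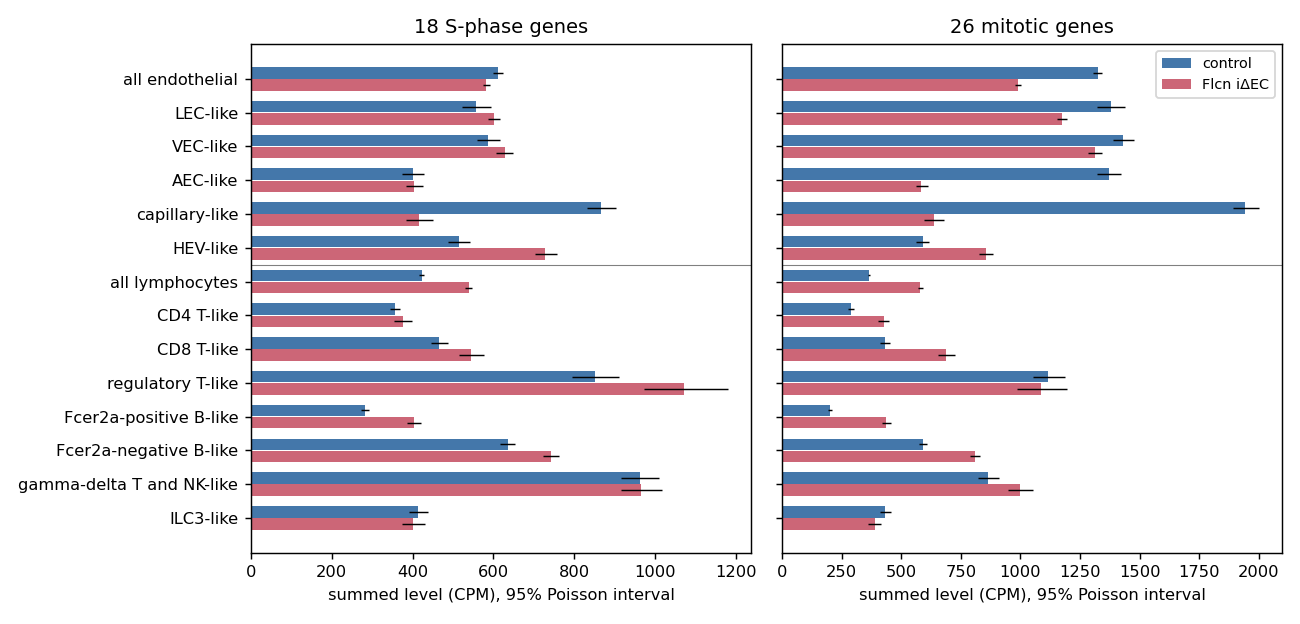
Summed level of the 18 S-phase genes and of the 26 mitotic genes in CPM, by cell type and library, with intervals for counting error. Mitotic levels of capillary-like cells are 1943 CPM in the control and 637 CPM in the mutant, and those of Fcer2a-positive B-like cells 201 and 438 CPM.

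These levels rest on few cells, and their intervals leave out which cells were caught. The top cell held 33.4% of the mitotic UMIs of control AEC-like cells and 2 cells held 50% of them, and in the mutant 18.2% and 4 cells. Without the top cell of each library the AEC-like ratio was 0.522. In capillary-like cells the top cell held 10.3% of the mitotic UMIs in the control and 40.1% in the mutant. There 7 control and 2 mutant cells held 50% of them. Without the top cells the ratio was 0.231 for mitotic and 0.399 for S-phase genes. In each panel the mutant top cell held the larger part, so leaving both out lowers the ratio and does not check it. In LEC-like cells the mitotic ratio turned from 0.852 to 1.03 without the top cells, of which the control one held 24.9% of that library's UMIs.

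HEV-like cells ran the other way, at 515 and 729 CPM of S-phase genes, 1.42, and 590 and 854 CPM of mitotic genes, 1.45. This depended on the cells with Ptprc. When those were left out the log2 ratios were -0.43 for S-phase and -2.03 for mitotic genes, from few cells, so no direction is given for this type.

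By gene, the capillary-like cells differed across nearly the whole mitotic panel. Here and in the types below, the genes of a panel were counted in the same cells. A number of genes is therefore not a number of separate observations. In capillary-like cells the top 5 cells held 42.0% of the control and 86.6% of the mutant mitotic UMIs. Genes with at least 50 UMIs over both libraries were compared, and 3.68% of all 7990 such genes were at least 2-fold lower in mutant capillary-like cells. Of the members, 20 of 24 mitotic and 7 of 15 S-phase genes were, and 0 were 2-fold higher, as were 2.65% of all genes. The median log2 ratio was -1.54 for mitotic and -0.96 for S-phase genes against -0.05 for all genes. Other markers of these cells also differed between the libraries. The 9 LEC markers, all detected in both, summed to 104 and 477 CPM, among them the chemokine gene Ccl21a at 19.9 and 227 CPM, while the capillary list summed to 10282 and 12364 CPM. Aplnr, the apelin receptor gene, stood at 650 and 262 CPM and Car4, a carbonic anhydrase gene, at 11.6 and 88.9 CPM. The part of these shifts in the lower member levels was not tested.

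The lowest ratios in capillary-like cells were those of a histone and a spindle gene. For Hist1h1b 207 control and 5 mutant UMIs were counted, 82.5 and 3.5 CPM, a ratio of 0.0424 (0.0136 to 0.101). Nusap1, which bundles spindle microtubules, had 148 and 7 UMIs, 59.0 and 4.90 CPM, a ratio of 0.0831 (0.0328 to 0.175). At the other end lay the replication fork gene Gins2, at 17.5 and 16.1 CPM with a ratio of 0.918 (0.529 to 1.55), and Cenpa, at 137 and 102 CPM, 0.745. The remaining genes past 2-fold included the cyclins Ccna2, Ccnb1 and Ccnb2, the kinases Cdk1, Aurka, Aurkb and Plk1, both checkpoint genes, and Mcm2 and Mcm5.

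AEC-like cells showed the same side for mitotic genes and not for S-phase genes. Their top 5 cells held 83.4% of the control and 60.8% of the mutant mitotic UMIs. There 13 of 21 mitotic and 0 of 14 S-phase genes were at least 2-fold lower, against 4.55% of all genes, and the median log2 ratios were -1.18 and 0.01 beside -0.14 for all. Ube2c, the ubiquitin-conjugating enzyme of mitotic exit, was the lowest, with 331 and 135 UMIs and 163 and 38.0 CPM, a ratio of 0.233 (0.189 to 0.285). Gins2 was the exception among the S-phase genes, at 7 and 45 UMIs, 3.45 and 12.7 CPM, 3.67-fold higher (1.64 to 9.65), where 2.61% of all genes were 2-fold higher.

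The other endothelial types had few members past 2-fold. In LEC-like cells Bub1b, Plk1, Cenpe and Kif2c, 4 of 26 mitotic genes, were lower, with 7.53% of all genes lower and 3.66% higher. Cenpe, the kinesin that moves chromosomes to the spindle equator, stood at 56.1 and 24.8 CPM, 0.442, and Ccnb1 at 27.4 and 41.1 CPM, 1.5. In VEC-like cells 0 members were past 2-fold in either direction, against 2.42% and 4.14% of all genes. In HEV-like cells only the nucleotide reductase subunit gene Rrm2 was, at 13.3 and 29.6 CPM, 2.22, against 2.95% of all genes. Gins2 had the highest ratio of the tested S-phase genes in LEC-like cells, 11.2 and 21.8 CPM, and in VEC-like cells, 10.3 and 16.4 CPM.

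**Figure D4:**
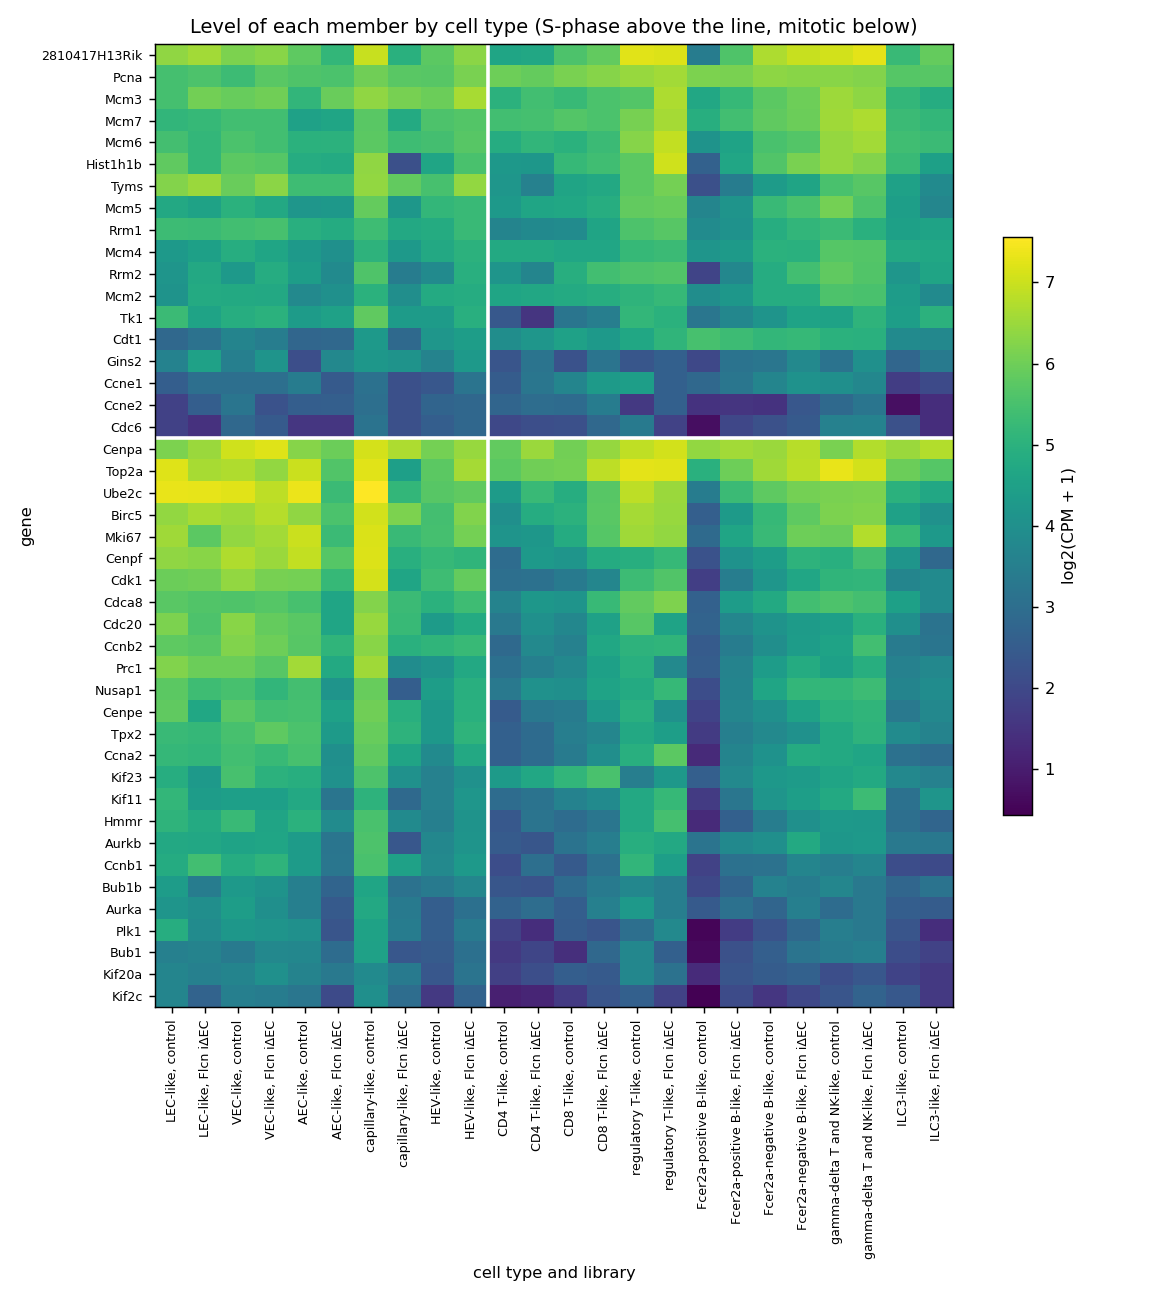
Level of each of the 44 genes in CPM by cell type and library, as colour on the log2(CPM + 1) scale, with S-phase genes above the white line and mitotic genes below it and vessels left of lymphocytes. In capillary-like cells Hist1h1b stands at 82.5 CPM in the control and 3.5 CPM in the mutant.

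B-like cells had the most members past 2-fold of the 4 lymphocyte types compared by gene. All 26 mitotic genes and 16 of 18 S-phase genes were higher in the mutant, 14 of the mitotic and 4 of the S-phase genes at least 2-fold, beside 2.02% of all genes, and 0 were 2-fold lower, beside 1.14%. The summed levels were 419 and 597 CPM for S-phase genes, 1.42, and 353 and 648 CPM for mitotic genes, 1.84. Median log2 ratios were 1.09 for mitotic, 0.58 for S-phase and -0.08 for all genes. The UMIs were spread over more cells than in vessels, since 21 control and 24 mutant cells held 50% of the mitotic UMIs, and without the top cells the ratio remained 1.84. Kif2c had the highest ratio, 18 and 37 UMIs, 0.976 and 3.03 CPM, 3.10 (1.72 to 5.79). Rrm2 stood at 12.5 and 29.1 CPM, 2.34, Cenpa at 86 and 104 CPM, 1.21, and the licensing factor gene Cdt1 at 40.5 and 37.2 CPM, 0.92.

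Within B-like cells the ratio was larger in those with Fcer2a. Their mitotic level was 201 and 438 CPM, 2.18, and that of cells without Fcer2a 592 and 808 CPM, 1.36, a difference that was not tested. Deeper cells pass the split at 1 UMI of Fcer2a more readily. Cycling B-like cells had medians of 23023 and 18191.5 UMIs, against 6361.5 and 7975 in other B-like cells. The part of depth in this difference was not tested. 2810417H13Rik stood at 9.80 and 47.3 CPM with Fcer2a and at 102 and 124 CPM without it, so mutant cells with Fcer2a remained under control cells without it.

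T-like, γδ T and NK-like and ILC3-like cells differed less. T-like cells held 378 and 411 CPM of S-phase genes and 322 and 450 CPM of mitotic genes, ratios of 1.09 and 1.40, and 23 of 25 mitotic genes were above 1 although 0 members were past 2-fold higher or lower, as were 1.06% and 1.2% of all genes. The kinetochore gene Cenpf, at 8.52 and 16.6 CPM, came nearest. γδ T and NK-like cells held the highest levels of the large lymphocyte groups, 962 and 965 CPM of S-phase and 864 and 998 CPM of mitotic genes, and 0 members were past 2-fold, against 1.03% and 0.851% of all genes. In ILC3-like cells the mitotic level was 433 and 388 CPM, Kif11 was higher, with 0.816% of all genes, and Cenpf lower, with 5.35%. Kif11 had 23 and 32 UMIs and Cenpf 51 and 12.

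**Figure D5:**
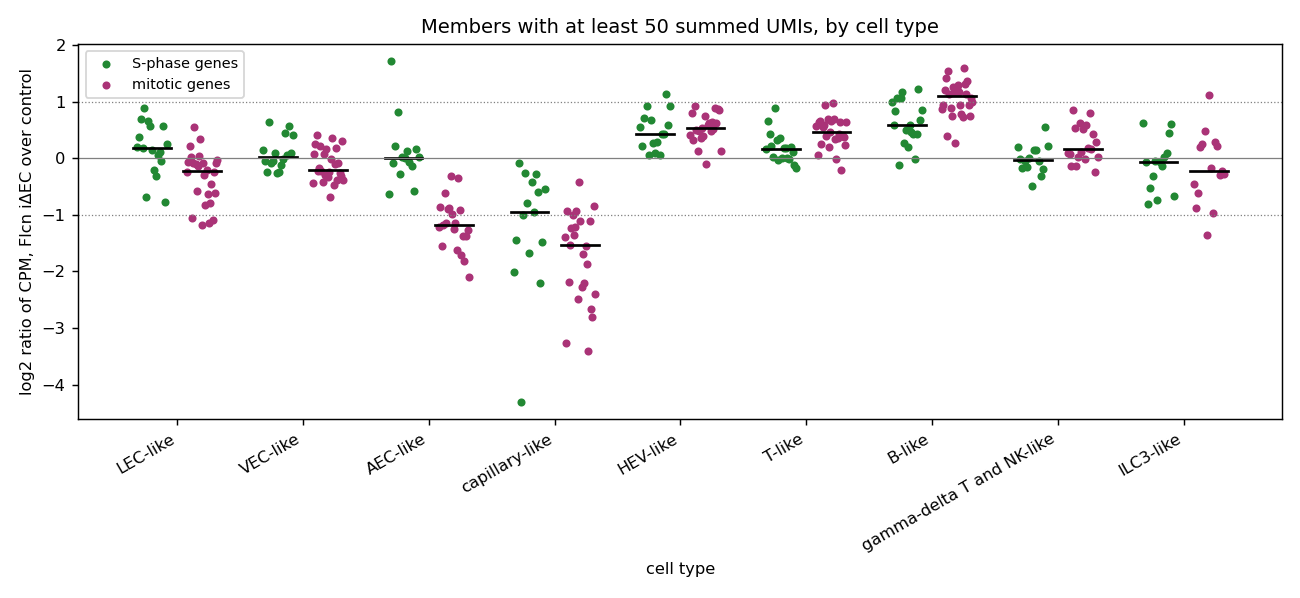
Ratio of the mutant to the control level of each of the 44 genes with at least 50 summed UMIs, on a log2 axis, in each cell type, with medians as black bars and 2-fold as dotted lines. In capillary-like cells both panels lie below 0, with medians of -0.96 and -1.54, and in B-like cells nearly all lie above it, with medians of 0.58 and 1.09.

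The members differed in level as well as in ratio. Each UMI stands for 1 transcript end, so these levels need no scaling by gene length. In all ECs Ube2c stood at 135 and 98.7 CPM, first of the mitotic genes in the control and level with Cenpa, at 102 and 99.0 CPM, in the mutant. The topoisomerase gene Top2a stood at 113 and 77.8 CPM and Mki67, the gene of the division marker Ki-67, at 96.0 and 59.9 CPM. Of the S-phase genes 2810417H13Rik, at 80.2 and 74.4 CPM, was first in the control and the thymidylate synthase gene Tyms, at 62.0 and 76.2 CPM, in the mutant, where their counting intervals overlap. Cdc6 was low at 4.50 and 3.30 CPM. In lymphocytes Cenpa led the mitotic genes at 73.6 and 96.9 CPM and Top2a followed at 59.8 and 84.1 CPM. Pcna stood at 67.8 and 68.1 CPM.

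Related genes outside the 44 were sorted into 6 lists of 62 genes. In cycling ECs 41 were at least 2-fold higher than in other ECs in the control and 43 in the mutant, and in lymphocytes 43 and 42. Of all genes tested, 4.33% and 4.44% were at least 2-fold higher in ECs and 10.3% and 7.48% in lymphocytes. All 12 of the further replication genes and all 5 chromatin and tubulin genes were, in both cell groups and both libraries. Of the 16 mitosis genes, 15 were in control ECs and 16 in mutant ECs. Of the 6 G1 cyclins and kinases, 0 were past 2-fold in control ECs and 1, Cdk2, in mutant ECs. In lymphocytes of both libraries 2 of the 6 were, Cdk2 at 3.30-fold and 2.35-fold and Cdk4 at 2.76-fold and 2.58-fold. Of the 11 cycle inhibitors tested 3 were at least 2-fold higher in ECs and 2 in lymphocytes. The p18 gene Cdkn2c was among them, at 20.1-fold and 8.42-fold in ECs. In cycling lymphocytes the inhibitor gene Cdkn1c was at least 2-fold lower in both libraries, and Btg1 in the control.

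The 1 mitosis gene that was not higher in control ECs was Pttg1, the gene of securin, which restrains the separation of sister chromatids. It stood at 39.7 CPM in cycling and 40.3 CPM in other control ECs, 0.985 (0.795 to 1.21), but at 221 and 9.57 CPM in the mutant, 23.0 (19.9 to 26.8). In lymphocytes the ratio was 0.963 in the control and 12.9 in the mutant. Among cells that were not cycling its level was higher in the control library in both groups, with 23.6 and 9.79 CPM in lymphocytes. Cdkn1a, the p21 inhibitor gene, was higher in the mutant in all 9 types, from 1.79-fold to 4.00-fold. In capillary-like cells it stood at 101 and 405 CPM, beside the lower levels of the 44 genes there, and in B-like cells it was 2.63-fold higher beside higher levels of them.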

How the data were processed

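CD31+ cells were isolated with magnetic beads and libraries made with the 10x Chromium 3′ v3 kit. Per the labels and the submitters' processing notes, the authors aligned reads with Cell Ranger 3.0 to mm10 and removed low-quality reads and PCR duplicates, and they deposited filtered matrices of whole-number UMI counts per gene and cell, with no cell annotation. Counting on strand is not given in the sources used here. All 28692 genes and all deposited cells were used. The members and the marker and related-gene lists were chosen with earlier results of these data known.

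Cells were typed by the mean z-score of log(1 + UMIs per 10000) over each list, taking the best list if it led by 0.2 SD, among 5 lists for cells with 2 or more Cdh5 UMIs and 9 for the others. T-like cells were split by Cd4, Cd8 and Foxp3, B-like cells by Fcer2a (1 UMI), LEC-like by Lyve1 and VEC-like by Prox1 (2 per 10000). These thresholds, and those of the cycling call (2000 UMIs, 4 S-phase or 3 mitotic UMIs, 50% of draws, from the exact hypergeometric distribution), were set after the data were seen. Levels are summed counts per 1000000 UMIs, CPM. Shares have exact Clopper-Pearson intervals, and ratios exact intervals from the binomial split of counts. No test between genotypes was run, since each had 1 library. Genes with 50 summed UMIs were compared, and those past 2-fold on the scale of log2(UMIs + 1) per total were counted. Doublets called by Scrublet (142 control, 2.08%, and 37 mutant, 0.83%, cells) were kept. The named genes are those past the fold or at the ends of the ratios of each panel, the defining genes of each type and, outside these, Gins2, 2810417H13Rik, Pttg1 and Cdkn1a, chosen after their values were seen. The statistics were tested on simulated data. Python 3.11.15, numpy 2.4.6, scipy 1.17.1, pandas 2.3.3, scanpy 1.11.5 and matplotlib 3.10.9 were used.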

Additional observations from a re-analysis of the deposited data

Results flagged for a closer look

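The log2 ratio of the mutant to the control level of the mitotic genes was -1.61 in capillary-like cells and 0.88 in B-like cells. These 2 values were the lowest and the highest among the endothelial and lymphocyte types compared by gene. They were picked as the extremes after the values were seen, so each is likely to overstate its type. They lie on opposite sides of 0, each from 1 library per genotype, and the difference between them was not tested.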

How the results depend on the processing

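No paired analysis was possible because each genotype had 1 library, and for the same reason no replicate could be left out. Shares of cycling cells depend on the depth and minimum chosen. In control and mutant ECs they were 10.5% and 7.63% at 1000 UMIs, 19.2% and 15.5% at 4000 and 57.4% and 74.6% unthinned. In control capillary-like cells the share was 12.8% at 1000 UMIs, and unthinned shares were 48.1% and 54.1%. In lymphocytes the shares were 1.46% and 3.45% at 1000, 6.19% and 10.3% at 4000, 23.6% and 31.3% unthinned, 3.54% and 6.84% with the minimum 1 UMI fewer and 2.98% and 6.00% as the mean over all draws, an alternative chosen after seeing the data. In B-like cells they were 1.26% at 1000 (control), 7.33% and 11.5% at 4000, 23.7% and 33.1% unthinned, 3.62% and 7.46% with 1 UMI fewer and 2.92% and 6.77% as the mean. The mutant to control ratio of the share stayed on its side of 1 in 12 of 12 alternatives for lymphocytes, T-like, B-like and γδ T and NK-like cells and in 11 of 12 for all ECs (0.728 to 1.30) and capillary-like cells (0.299 to 1.13), where no thinning was the exception. It did so in 11 of 12 for ILC3-like cells (0.430 to 1.02) and in 10 for LEC-like (0.791 to 1.34) and HEV-like cells (0.782 to 4.82). For VEC-like (0.730 to 1.49) and AEC-like cells (0.581 to 1.68) it did so in 9.

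The ratio of mitotic to S-phase UMIs in control ECs was 2.05 and 2.11 with Cdh5 of at least 1 and 4 UMIs, 2.40 without cells holding Ptprc and 2.03 as a mean over cells, and in mutant ECs 1.61 with Cdh5 of at least 1, 1.63 without Ptprc and 1.47 as a mean over cells. In lymphocytes the mean over cells gave 0.771 and 0.978, the mutant value passing to the other side of 1. Log2 ratios for capillary-like cells were -0.55 (S-phase) and -1.38 (mitotic) with types set by 1 or 2 defining genes, -0.70 and -1.79 as means over cells and -1.88 (mitotic) without Ptprc. For B-like cells they were 0.57 and 0.96 with Cdh5 of at least 1, and 0.43 and 0.73 as means over cells. Directions turned for LEC-like cells (S-phase -0.090 without Ptprc, mitotic 0.077 with Cdh5 of at least 4), VEC-like S-phase genes (-0.046 with Cdh5 of at least 1, -0.15 by defining genes, -0.18 as a mean), HEV-like cells (S-phase -0.43 and mitotic -2.03 without Ptprc, mitotic -0.32 by defining genes) and ILC3-like mitotic genes (0.017 with 1000 UMIs and 10% mitochondrial limits, 0.066 with Cdh5 of at least 1, 0.56 by defining genes). The cause was not tested. In AEC-like cells the S-phase genes called lower numbered 1 with a minimum of 20 summed UMIs, 1 with none and 2 at 1.5-fold, and in B-like cells 8 S-phase and 24 mitotic genes were called higher at 1.5-fold.

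One library per genotype, few mitotic ECs and a 3′ readout limit these values. Capillary-like cells in the mutant numbered 61, of which 5 were called cycling, so a share there is known to within 2.76% to 18.4%. The part of litter, sex, dissociation and cell capture in the differences cannot be told apart from genotype.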

Other observations

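Cells outside the endothelial, lymphocyte and other named types also held members. Of the cells with fewer than 2 Cdh5 UMIs that led in no list, 20 of 409 control cells were cycling, or 4.89% (3.01 to 7.45), and 51 of 364 mutant cells, or 14.0% (10.6 to 18), with intervals that do not overlap. ECs that led in no list were cycling in 17.3% (9.78 to 27.3) and 12.1% (6.42 to 20.2) of cases. Macrophage and dendritic-like cells were cycling in 7 of 67 and 6 of 39 cases.

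Among genes of the cell cycle that are not members, the D-type cyclin gene Ccnd2 was 0.26 times the control level in mutant LEC-like cells and 2.01 times in B-like cells, and the inhibitor gene Cdkn1c was 0.34 times in LEC-like cells. Between cycling and other cells, the ratio of Pttg1 differed by 4.53 on the log2 scale between the libraries in ECs, and of 11130 genes only Igfbp5 differed as much in the same direction. In lymphocytes it differed by 3.72, with Prss34 alone at or above it among 10229 genes. Of the 44 members, 0 differed between the libraries by more than 4-fold in this ratio, in ECs or in lymphocytes, where 42 and 80 of all genes did.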
